A study of Mus musculus with 14 samples.

Results

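Transcripts of the Zic and Ebf transcription factors were followed in J1 mouse embryonic stem cells (background 129S4/SvJae). The members were the genes Zic1, Zic2, Zic4, Zic5, Ebf1, Ebf2, Ebf3 and Ebf4, taken by symbol through their Ensembl gene IDs, and all 8 were found among the 37991 genes of each count table. Polyadenylated RNA was sequenced in 14 libraries, 2 for each of 7 groups. In experiment 1, Dnmt-TKO cells given PRT4165, Dnmt-TKO cells given the vehicle DMSO, wild-type (WT) cells given PRT4165 and WT cells given DMSO were compared. In experiment 2, untreated Tet1-KO Dnmt-TKO, Dnmt-TKO and WT cells were compared. Dnmt-TKO cells, called TKO here, carry disrupted genes for the DNA methyltransferases Dnmt1, Dnmt3a and Dnmt3b. Tet1 encodes an enzyme that oxidises methylated cytosine, and PRT4165 inhibits the polycomb complex PRC1, which ubiquitinates histone H2A. All groups shared the J1 background, with no inducible allele or Cre named, and no dose or duration of PRT4165 was found in the sources used here. The labels name no clones and do not say that replicates were separate cultures, so genotype and cell line cannot be told apart, and each p-value reflects how far these libraries spread, a spread that may be technical.

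ZIC proteins are zinc finger transcription factors related to the GLI factors of hedgehog signalling, and they act in the epiblast, the neural plate, the neural crest and the cerebellum. Their genes lie in head-to-head pairs, Zic1 beside Zic4 and Zic2 beside Zic5. EBF proteins bind DNA through their own zinc-coordinating domain and dimerise through a helix-loop-helix. EBF1 is required for B lymphocyte identity, EBF2 takes part in brown fat and neuronal development, and EBF3 acts in neurons and muscle. Many genes of this developmental kind have CpG-rich promoters that polycomb complexes occupy in embryonic stem cells.

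Mammalian DNA methylation falls mainly on CpG sites, and unmethylated CpG-rich promoters are where polycomb complexes gather, so the bases upstream of the start site are shown for 4 members whose responses differed. Start sites and sequences came from RefSeq on build GRCm38.p6, and each line below keeps only bases upstream of any annotated exon. CpG dinucleotides are in capitals. The Ebf3 window is chr7:137314446-137314695 (minus strand), that of Ebf4 chr2:130295689-130295938 (plus), that of Zic1 chr9:91365811-91366018 (minus) and that of Zic5 chr14:122465678-122465908 (minus).
Ebf3: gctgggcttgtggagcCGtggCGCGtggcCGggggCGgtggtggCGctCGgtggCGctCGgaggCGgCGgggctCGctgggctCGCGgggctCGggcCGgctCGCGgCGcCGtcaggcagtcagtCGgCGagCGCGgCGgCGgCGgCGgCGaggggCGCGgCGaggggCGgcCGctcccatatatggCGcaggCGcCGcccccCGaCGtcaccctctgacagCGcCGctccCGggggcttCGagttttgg
Ebf4: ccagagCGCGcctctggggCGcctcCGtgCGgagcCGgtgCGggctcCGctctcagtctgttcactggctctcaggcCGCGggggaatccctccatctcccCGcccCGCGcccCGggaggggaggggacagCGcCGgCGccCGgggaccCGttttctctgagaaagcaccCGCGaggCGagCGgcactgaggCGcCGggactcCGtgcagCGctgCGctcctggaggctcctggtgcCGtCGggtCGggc
Zic1: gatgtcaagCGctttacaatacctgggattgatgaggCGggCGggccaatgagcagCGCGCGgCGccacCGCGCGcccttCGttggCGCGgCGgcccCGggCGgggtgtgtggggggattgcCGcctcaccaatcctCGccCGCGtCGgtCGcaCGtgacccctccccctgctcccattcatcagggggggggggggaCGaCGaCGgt
Zic5: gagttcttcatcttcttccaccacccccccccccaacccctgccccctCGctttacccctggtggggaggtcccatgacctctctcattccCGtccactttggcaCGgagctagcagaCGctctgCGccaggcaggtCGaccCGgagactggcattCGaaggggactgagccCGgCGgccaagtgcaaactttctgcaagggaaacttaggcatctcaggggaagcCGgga

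Over the full 250 bases upstream of the start, Ebf3 held 43 CpGs at a GC content of 80%, and 0.712% of 32851 promoter windows held as many. Ebf4 held 31 CpGs, a number reached in 5.19% of windows, and Zic1 held 27, reached in 8.56%. Zic5 held 11 CpGs, which 35.6% of windows reached. Zic4 held 4, against a median of 6 over all windows. Ebf1 has an upstream and a downstream start in this table, with 9 and 14 CpGs. Of the 8 members, 6 had a window in this table. The upstream ends of the Zic4 window and of the Ebf1 window with 9 CpGs lie within annotated exons, so these counts are in part of transcribed sequence. DNA methylation and polycomb binding at these windows were not measured in these libraries, so the counts describe the sequences only.

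The depth ranged over 25588815 to 37399837 counts per library in experiment 1, and over 23354015 to 41844823 in experiment 2. Levels are given as CPM, that is counts divided by TMM-adjusted library size, with ± for the SD (n = 2). Changes are log2 fold changes from edgeR's quasi-likelihood fit, with a standard error (SE) derived from the F statistic of the test. A gene was called at a Benjamini-Hochberg adjusted p under 0.05 over all genes tested, 16711 in experiment 1 and 16303 in experiment 2. The targeted transcripts were lower but not absent: Dnmt1 stood at 128 and 128 CPM in TKO cells given DMSO against 424 and 434 CPM in WT cells given DMSO, and Tet1 at 134 and 201 CPM in Tet1-KO TKO cells against 791 and 742 CPM in TKO cells. All 10 embryonic stem cell markers were above 1 CPM in every group, with sums of 4069 to 7976 CPM. Among the 10 neuron markers, the sum was 279 to 425 CPM in TKO and Tet1-KO TKO groups against 106 to 121 CPM in WT groups, and Dcx and Snap25 were at 0 in WT cells given DMSO and in untreated WT cells. The 8 B lymphocyte markers summed to 1.85 to 6.31 CPM in any library, and the 10 fibroblast markers to 540 to 1176 CPM. In bulk RNA, fewer cells of a type and less RNA per cell cannot be told apart.

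Zic2 and Zic5 were the abundant members, and only Zic2, Zic5 and Ebf1 exceeded 4 CPM in any group mean. Per kilobase of exon, in TKO cells given DMSO Zic2 stood at 21.7 CPM, Zic5 at 11.7, Ebf4 at 0.431, Ebf1 at 0.196, Ebf3 at 0.133, Zic1 at 0.0413 and Ebf2 at 0.0315. In WT cells given DMSO the same scale gave 1.71 for Zic5, 1.06 for Zic2 and less than 0.1 for every other member. Zic5 therefore led the level per kilobase in WT cells given DMSO, and Zic2 led it in TKO cells given DMSO. Zic4 and Zic1 had 0 counts in both WT vehicle libraries, which allows up to 0.0475 CPM over that group at a floor of 3 counts. This floor, like every interval on counts here, covers counting error only.

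**Figure D1:**
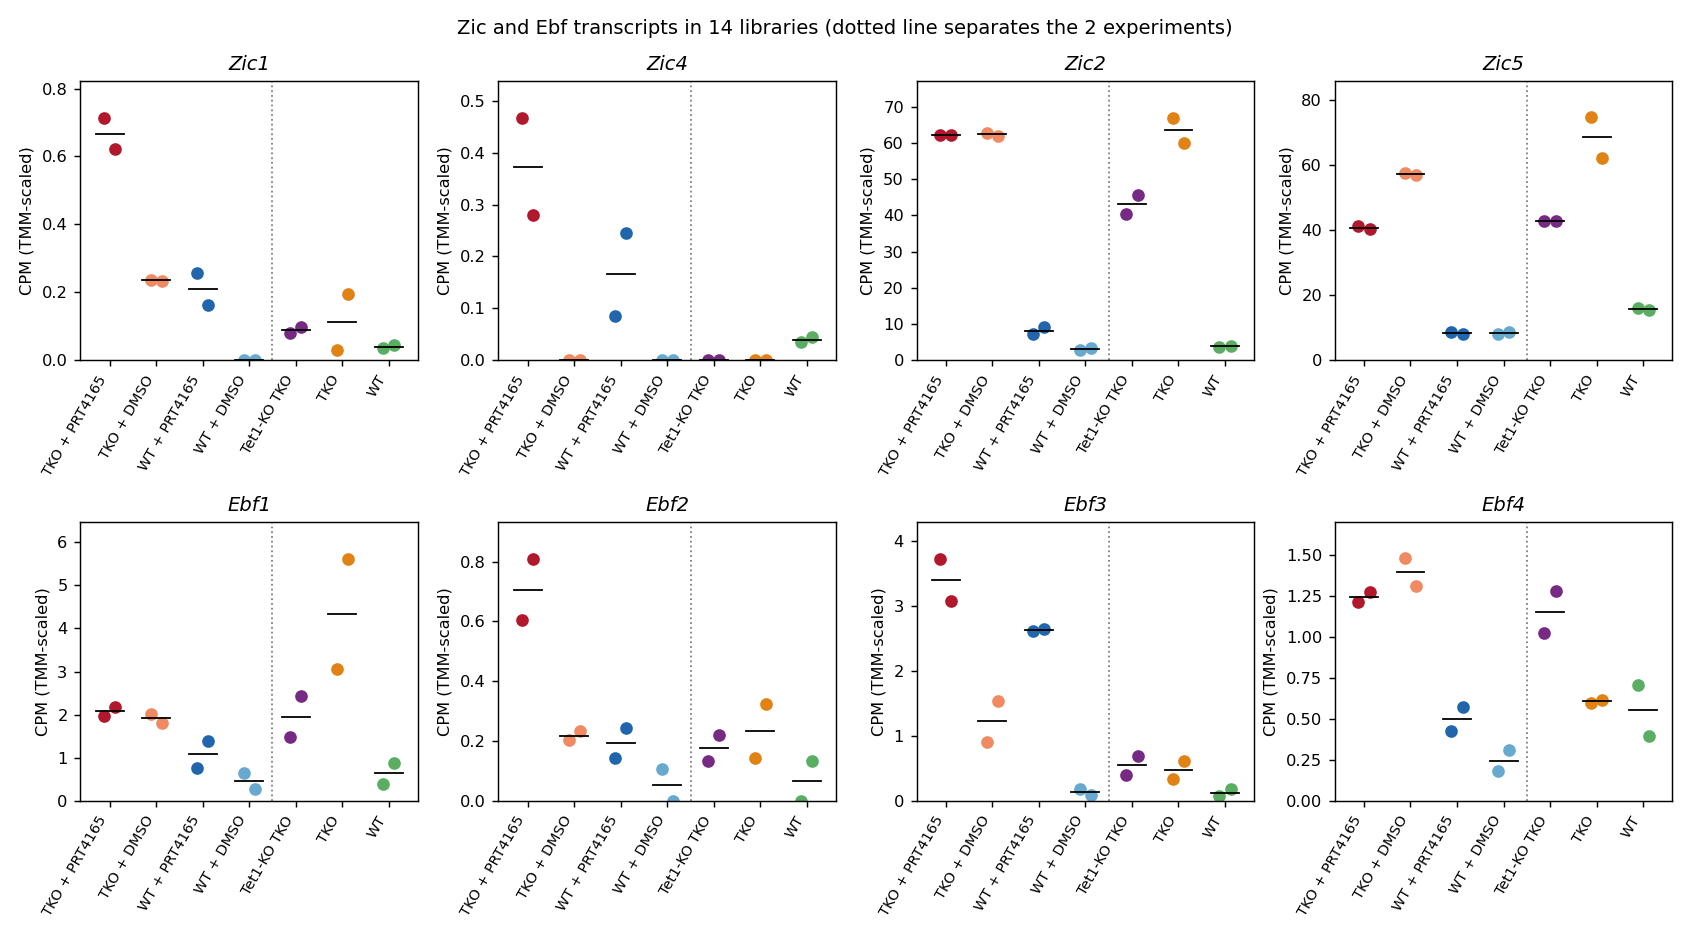
Each panel plots the TMM-scaled CPM of a member (vertical axis, linear, from 0) in the 7 groups, with a point for each library and a line at the group mean. Zic2 lies between 62 and 62.7 CPM in the 4 TKO libraries of experiment 1 and between 2.79 and 9.17 CPM in the 4 WT libraries, while Ebf3 is also high in WT cells given PRT4165.

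The first comparison asked how these genes differ in cells without the DNA methyltransferases. In TKO cells given DMSO, all 7 members that passed the filter on low counts were higher than in WT cells given DMSO, where 34.8% of all tested genes were called higher, 34.2% lower and 69.0% in either direction. The member left out by the filter was Zic4, with 0 counts in all 4 libraries. The median log2 fold change of the 7 was 2.77, against 0.01 over all genes tested. Zic1 and Ebf2 passed the filter only through TKO cells given PRT4165, a group outside this comparison. The tested set of experiment 1 was thus not chosen independently of genotype or treatment. With no filter, 6 of the 8 members were called, without Zic4 and Ebf2 (adjusted p = 0.0512 for Ebf2). With more than 1 CPM in 2 libraries, 5 were tested and 5 called, but Ebf1 and Ebf4 would not have passed that filter without TKO libraries.

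Zic2, a regulator of neural tube closure and forebrain patterning that also binds enhancers in stem cells, stood at 62.7 and 62 CPM in TKO cells given DMSO and at 2.79 and 3.33 CPM in WT cells given DMSO. It rose by 4.34 (SE 0.10, edgeR adjusted p = 6.1e-22). Zic5, its divergent neighbour with a role in neural crest, stood at 57.4 and 56.8 CPM in these TKO cells and at 8.04 and 8.68 CPM in the WT cells. It rose by 2.77 (SE 0.07, adjusted p = 1.4e-20). The libraries of each genotype were tightly grouped and far apart for both genes.

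Zic1, known for roles in cerebellar and neural crest development, had 7 counts in each TKO library given DMSO (0.236 and 0.234 CPM) and 0 in both WT libraries. It was called higher (adjusted p = 0.000663), and its level was at least 4.95-fold higher against the floor of 3 counts over the WT group. Zic1 shares exon sequence with Zic4 on the opposite strand, and no strand setting of the counting was found, so reads of the 2 genes cannot be told apart there.

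Ebf3 stood at 0.909 and 1.54 CPM in TKO cells given DMSO against 0.179 and 0.0933 CPM in WT cells given DMSO, and rose by 3.16 (SE 0.45, adjusted p = 1.2e-06). Ebf4 stood at 1.48 and 1.31 CPM against 0.179 and 0.311 CPM in the same groups and rose by 2.47 (SE 0.38, adjusted p = 3.2e-06). Ebf1 stood at 2.02 and 1.81 CPM against 0.643 and 0.28 CPM and rose by 2.08 (SE 0.34, adjusted p = 9.3e-06). Groups did not overlap for these 3 genes, but with 2 libraries per group this is weak evidence. Its share over all genes was not counted. Exons of Ebf3 overlap those of the gene model Gm45278, and exons of Ebf2 those of Gm10860. The rise of Ebf1 was 2.76 without WT vehicle replicate 1 and 1.57 without WT vehicle replicate 2. Ebf2 rested on 6 and 7 counts in the TKO libraries against 3 and 0 in the WT libraries, with a log2 fold change of 2.04 (SE 0.89, adjusted p = 0.0461). That call was lost in 7 of 10 alternatives, with adjusted p from 0.00732 to 0.344. Without TKO vehicle replicate 1 or 2 the change was 2.15 or 1.94, and without WT vehicle replicate 1 or 2 it was 5.80 or 1.00, with the call kept only without WT vehicle replicate 1.

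The same genotypes were compared without treatment in experiment 2, which shares no library with experiment 1. In untreated TKO cells 4 of the 5 members tested were called higher than in untreated WT cells, where 25.9% of tested genes were called higher, 24.3% lower and 50.2% in either direction. Zic1, Zic4 and Ebf2 did not pass the filter. Ebf3 passed it only through TKO and Tet1-KO TKO libraries, where it was higher. That Ebf3 was tested is thus not independent of genotype. Zic2 stood at 66.9 and 60.1 CPM in TKO cells against 3.64 and 4.01 CPM in WT cells and rose by 4.06 (SE 0.14, adjusted p = 1.3e-09). Zic5 stood at 74.6 and 62.2 CPM against 15.9 and 15.5 CPM and rose by 2.12 (SE 0.12, adjusted p = 6.5e-08). The WT level of Zic5 was higher than in WT cells given DMSO, though the 2 tables were scaled separately and this difference was not tested.

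Ebf1 stood at 3.07 and 5.62 CPM in untreated TKO cells against 0.388 and 0.882 CPM in untreated WT cells and rose by 2.80 (SE 0.43, adjusted p = 0.000219). The rise was 3.47 without WT replicate 2 and ranged from 2.28 to 3.47 over all alternatives. Ebf3 stood at 0.341 and 0.613 CPM against 0.0706 and 0.176 CPM, from 12 and 19 counts against 2 and 4. Its rise of 1.96 (SE 0.68, adjusted p = 0.0307) was lost without TKO replicate 2 (1.50, adjusted p = 0.188) or WT replicate 1 (1.39, adjusted p = 0.188) and was 2.69 without WT replicate 2. It was lost in DESeq2 too (adjusted p = 0.089). Ebf4 did not pass the test in these cells. It stood at 0.597 and 0.613 CPM in TKO cells against 0.706 and 0.397 CPM in WT cells, with overlapping groups and a log2 difference of 0.10 (95% interval -0.81 to 1.01, adjusted p = 0.854). The change of Ebf4 under vehicle was 2.47 with an interval of 1.69 to 3.24, and the difference between the experiments was not tested. For the members that did not pass the filter, the TKO and WT libraries held 1 and 6 against 1 and 1 counts for Zic1, 5 and 10 against 0 and 3 for Ebf2, and 0 and 0 against 1 and 1 for Zic4.

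**Figure D2:**
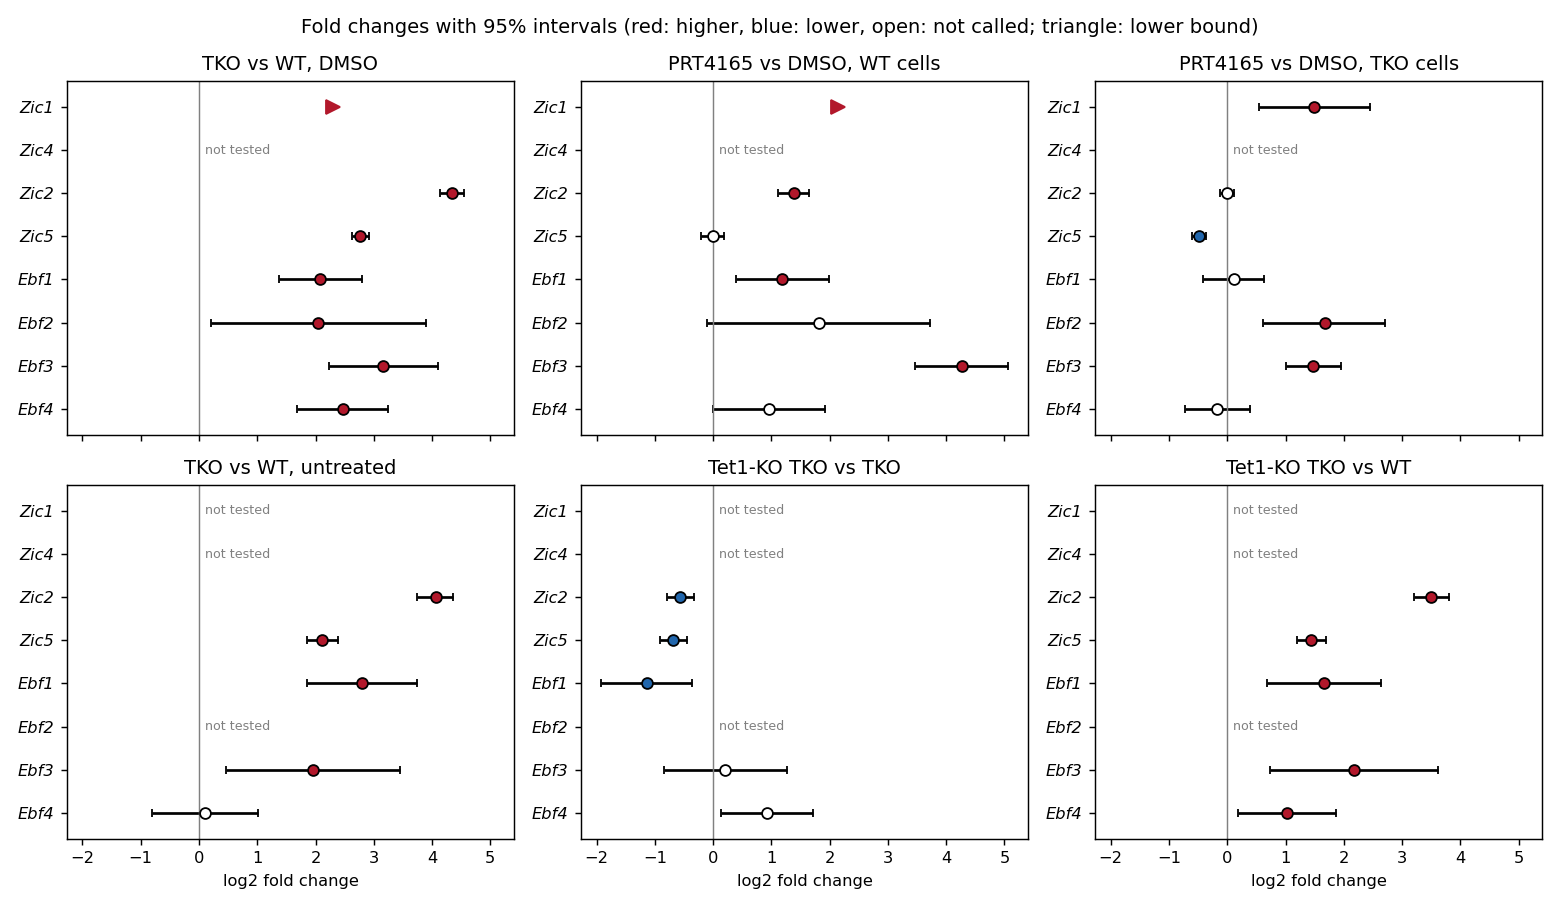
Log2 fold changes of the 8 members (horizontal axis) in 6 comparisons, with 95% intervals from edgeR; filled points passed the test, open points did not, and triangles are lower bounds where the compared group had 0 counts. Zic2 and Zic5 lie at 4.34 and 2.77 in TKO against WT cells under DMSO, and Ebf3 has the highest value, 4.27, under PRT4165 in WT cells.

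PRT4165 was compared with DMSO in cells that have their DNA methyltransferases, to ask what PRC1 inhibition does to these genes. In WT cells given PRT4165, 4 of the 7 members tested were higher than in WT cells given DMSO and none was lower, where 19.0% of tested genes were called higher, 18.7% lower and 37.6% in either direction. The median log2 fold change of the 7 was 1.38, against 0.01 over all genes. The Zic and the Ebf genes each gave 2 of the 4 calls. Stem cell markers moved in the same comparison, 7 of 10 lower, as did 3 of 8 neuron markers, 2 higher and 1 lower, and their part in these changes was not tested.

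Ebf3 stood at 2.62 and 2.65 CPM in WT cells given PRT4165 against 0.179 and 0.0933 CPM in WT cells given DMSO. It rose by 4.27 (SE 0.39, adjusted p = 6.1e-09), and the inhibitor libraries of WT cells were higher than both TKO libraries given DMSO. Zic2 stood at 7.16 and 9.17 CPM in WT cells given PRT4165 against 2.79 and 3.33 CPM with DMSO and rose by 1.38 (SE 0.13, adjusted p = 1.1e-08). Ebf1 stood at 0.77 and 1.39 CPM against 0.643 and 0.28 CPM, groups that do not overlap but lie close. Its rise of 1.19 (SE 0.39, adjusted p = 0.017) was lost without WT vehicle replicate 2 (0.68, adjusted p = 0.225) or WT inhibitor replicate 2 (0.77, adjusted p = 0.215), and was 1.87 without WT vehicle replicate 1.

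Zic1 and Zic4, silent in WT cells given DMSO, both had reads after PRT4165. Zic1 had 9 and 4 counts in WT cells given PRT4165 against 0 and 0 with DMSO, was called (adjusted p = 0.00242) and was at least 4.42-fold higher. Zic4 had 3 and 6 counts against 0 and 0, at least 3.48-fold higher; it was too low for the filter, and with no filter it was called (adjusted p = 0.0215). These 2 genes form a head-to-head pair on chromosome 9 and share exon sequence, so their reads may not be fully separated.

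Zic5 stood apart from its neighbour Zic2. It had 8.59 and 7.91 CPM in WT cells given PRT4165 against 8.04 and 8.68 CPM with DMSO, overlapping groups with a log2 difference of -0.01 (95% interval -0.21 to 0.18, adjusted p = 0.937). Ebf2 had 5 and 6 counts against 3 and 0, a log2 difference of 1.81 with an interval from -0.10 to 3.72 (adjusted p = 0.13), and without WT vehicle replicate 1, which left no count with DMSO, it passed the test (adjusted p = 0.0259). Ebf4 stood at 0.428 and 0.571 CPM against 0.179 and 0.311 CPM, with a log2 difference of 0.96 (interval 0.00 to 1.92, adjusted p = 0.108). The groups did not overlap for either of these 2 Ebf genes, but neither passed the test. The share of all genes without overlap was not counted.

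In TKO cells, PRT4165 was tested against DMSO in the same way. Among the 7 members tested 3 were called higher and 1 lower, where 39.5% of tested genes were called, 19.9% higher and 19.6% lower. The median log2 fold change of the 7 was 0.11, while 6 of 10 stem cell markers were lower and none higher, and 1 of 8 neuron markers was higher and 3 lower. Their part in these changes was not tested. Ebf3 stood at 3.73 and 3.08 CPM in TKO cells given PRT4165 against 0.909 and 1.54 CPM with DMSO and rose by 1.47 (SE 0.23, adjusted p = 1.6e-05). Ebf2 had 22 and 26 counts against 6 and 7 and rose by 1.67 (SE 0.50, adjusted p = 0.0109). Zic1 had 26 and 20 counts against 7 and 7 and rose by 1.49 (SE 0.46, adjusted p = 0.0129). In experiment 1 Ebf2 and Zic1 passed the filter only through TKO cells given PRT4165, the group where they are high. That they were tested is thus not independent of their rise here. Libraries of Ebf3, Ebf2 and Zic1 did not overlap between treatments. Those of Zic4, Zic5 and Ebf4 did not overlap either, although Zic4 was not tested and Ebf4 was not called. With 2 libraries per group this is weak evidence, and its share over all genes was not counted.

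The calls of Ebf2 and Zic1 did not survive every alternative. Ebf2 was lost without TKO vehicle replicate 1 (adjusted p = 0.0819), TKO vehicle replicate 2 (0.057) or TKO inhibitor replicate 2 (0.0882), and Zic1 without TKO vehicle replicate 1 (0.0755), TKO vehicle replicate 2 (0.0781) or TKO inhibitor replicate 1 (0.0797). Both were lost in DESeq2, at adjusted p of 0.0919 for Ebf2 and 0.136 for Zic1. Zic4 had 17 and 9 counts in TKO cells given PRT4165 against 0 and 0 with DMSO, at least 7-fold higher, and with no filter it was called (adjusted p = 0.000173). Zic4 therefore had reads with the inhibitor in both genotypes, and with DMSO in neither.

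Zic5 was the member that fell. It stood at 41.1 and 40.2 CPM in TKO cells given PRT4165 against 57.4 and 56.8 CPM with DMSO and fell by 0.49 on the log2 scale (SE 0.06, adjusted p = 2.9e-07). Zic2, with 62.3 and 62.1 CPM against 62.7 and 62 CPM, had an interval of -0.13 to 0.12 for its log2 difference (adjusted p = 0.971). Ebf1 stood at 1.97 and 2.18 CPM against 2.02 and 1.81 CPM, with an interval of -0.41 to 0.63 (adjusted p = 0.762). Ebf4 stood at 1.21 and 1.27 CPM against 1.48 and 1.31 CPM, with an interval of -0.73 to 0.39 (adjusted p = 0.657).

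Whether the inhibitor response differed between genotypes was tested as an interaction on the log2 scale. The interaction is the response in TKO cells minus that in WT cells. It was called for 3 of 7 members, all negative, where 3.89% of tested genes were called, 2.12% negative and 1.77% positive. Ebf3 had an interaction of -2.79 (SE 0.51, adjusted p = 0.00185), with a response of 1.47 in TKO cells against 4.27 in WT cells. Its final levels under PRT4165 were 3.73 and 3.08 CPM in TKO cells and 2.62 and 2.65 CPM in WT cells, so the smaller response started from a higher vehicle level. Zic2 had an interaction of -1.39 (SE 0.14, adjusted p = 1.1e-06), and its WT level under the inhibitor remained far below that of TKO cells. Zic5 had an interaction of -0.48 (SE 0.11, adjusted p = 0.0126), which was lost without WT inhibitor replicate 1 (-0.41, adjusted p = 0.112).

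For the other members the interaction did not pass the test. The value was -1.08 for Ebf1 (95% interval -2.04 to -0.12, adjusted p = 0.214), -1.13 for Ebf4 (-2.24 to -0.02, adjusted p = 0.27) and -0.15 for Ebf2 (-1.85 to 1.56, adjusted p = 0.957). The value for Zic1 has no usable size because the WT vehicle group was at 0 (adjusted p = 0.168). These intervals are wide, and equal responses in the genotypes were not shown.

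Experiment 2 also asked what loss of Tet1 does in cells that already lack the methyltransferases. In Tet1-KO TKO cells 3 of the 5 members tested were lower than in TKO cells and none was higher, where 10.4% of tested genes were called lower, 11.6% higher and 22.0% in either direction. Zic5 stood at 42.7 and 42.8 CPM in Tet1-KO TKO cells against 74.6 and 62.2 CPM in TKO cells and fell by 0.68 (SE 0.11, adjusted p = 0.00141). Zic2 stood at 40.5 and 45.7 CPM against 66.9 and 60.1 CPM and fell by 0.56 (SE 0.11, adjusted p = 0.00413), a call lost without TKO replicate 1 (-0.48, adjusted p = 0.0682). Ebf1 stood at 1.48 and 2.43 CPM against 3.07 and 5.62 CPM and fell by 1.14 (SE 0.36, adjusted p = 0.0392). Neuron markers moved too, 4 of 8 lower and 1 higher, and their part was not tested. The call of Ebf1 was lost without Tet1-KO TKO replicate 1 (-0.83, adjusted p = 0.202) or TKO replicate 2 (-0.65, adjusted p = 0.367).

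Ebf3 and Ebf4 did not pass this test. Ebf3 stood at 0.403 and 0.687 CPM in Tet1-KO TKO cells against 0.341 and 0.613 CPM in TKO cells, overlapping groups with an interval of -0.84 to 1.27 (adjusted p = 0.792). Ebf4 stood at 1.02 and 1.28 CPM against 0.597 and 0.613 CPM, groups that did not overlap, with a log2 difference of 0.92 (interval 0.13 to 1.72 before adjustment, adjusted p = 0.0914). For the members below the filter, Tet1-KO TKO and TKO libraries held 3 and 4 against 1 and 6 counts of Zic1, 5 and 9 against 5 and 10 of Ebf2, and none of Zic4.

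Set against untreated WT cells, which are also the baseline of the TKO comparison above, all 5 members tested were higher in Tet1-KO TKO cells, where 26.3% of tested genes were called higher, 24.4% lower and 50.7% in either direction. Among these members, Ebf3 had passed the filter only through TKO and Tet1-KO TKO libraries. Of the markers tested, 5 of 8 neuron markers were higher and 1 lower, 3 of 10 stem cell markers higher and 5 lower, and 1 of 7 fibroblast markers higher and 5 lower, and their part was not tested. The log2 fold change was 3.50 for Zic2 (SE 0.14, adjusted p = 3.5e-09) and 1.44 for Zic5 (SE 0.12, adjusted p = 1.1e-06), with both genes below their TKO level and above their WT level. It was 2.17 for Ebf3 (SE 0.66, adjusted p = 0.0154), 1.66 for Ebf1 (SE 0.45, adjusted p = 0.00863) and 1.03 for Ebf4 (SE 0.38, adjusted p = 0.041). Only the Zic2 and Zic5 calls held when any library was left out. Without Tet1-KO TKO replicate 2 the values were 1.73 for Ebf3 (adjusted p = 0.0984), 1.26 for Ebf1 (0.0736) and 0.85 for Ebf4 (0.165), and 2 members were called. Without WT replicate 1 they were 1.61 for Ebf3 (0.123) and 1.14 for Ebf1 (0.0958), and 3 members were called. Ebf4 was also lost without Tet1-KO TKO replicate 1 (1.18, adjusted p = 0.052) or WT replicate 2 (0.71, adjusted p = 0.197), while without WT replicate 2 Ebf3 reached 2.90 and Ebf1 2.33. In DESeq2, 3 members were called, without Ebf3 (adjusted p = 0.0556) and Ebf4 (0.153).

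The Zic2 and Zic5 genes differed in the size of these changes, which shifted the ratio of their read counts. With PRT4165, TKO libraries had 1.51 and 1.55 Zic2 reads for each Zic5 read against 1.09 and 1.09 with DMSO, and WT libraries had 0.834 and 1.16 against 0.347 and 0.384. In experiment 2 the ratio was 0.947 and 1.07 in Tet1-KO TKO cells, 0.896 and 0.967 in TKO cells and 0.228 and 0.259 in WT cells. All 4 WT libraries without inhibitor were below 0.4 and every other library was above 0.8. The ratios of Tet1-KO TKO and TKO libraries overlapped. Between same-numbered libraries the Tet1-KO TKO ratio was the higher in both pairs, though this pairing is not certain. A ratio of reads within a library does not depend on library scaling, and differences in the ratio were not tested.

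**Figure D3:**
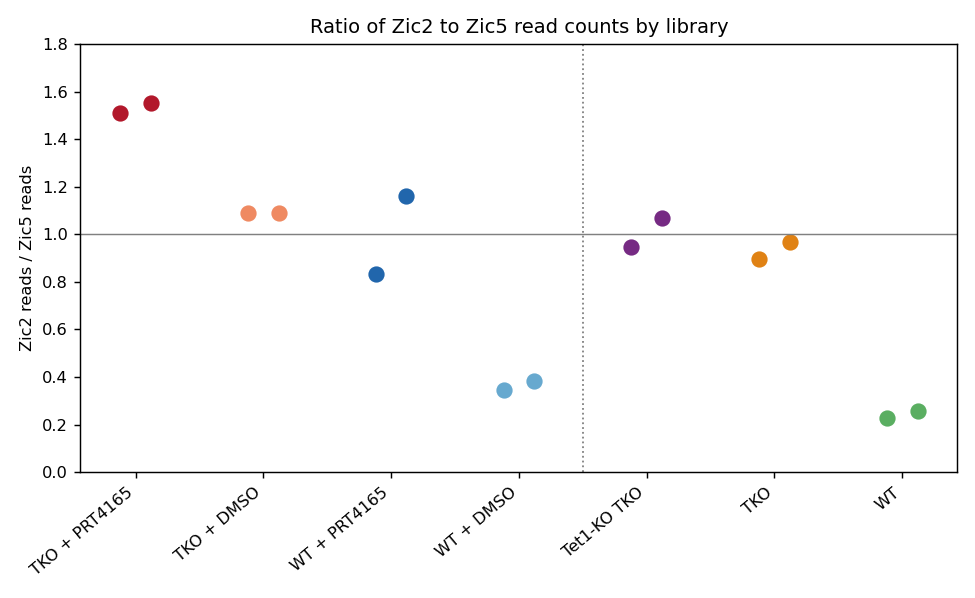
Number of Zic2 reads for each Zic5 read (vertical axis, linear, from 0) in each library of the 7 groups, with a line at 1. The 4 WT libraries without inhibitor lie between 0.228 and 0.384, and the TKO libraries given PRT4165 are highest at 1.51 and 1.55.

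Genes beside the pair on chromosome 14 were examined because the 2 Zic genes share that region. The noncoding transcript 2610035F20Rik lies between Zic5 and Zic2 in gene order. It stood at 6.03 and 5.56 CPM in TKO cells given DMSO against 0.286 and 0.124 CPM in WT cells given DMSO and rose by 4.83 (SE 0.30, adjusted p = 3.9e-13). It rose with PRT4165 in WT cells, with 0.742 and 1.35 CPM against 0.286 and 0.124 CPM (2.30, SE 0.43, adjusted p = 0.000167), and in TKO cells it stood at 7.31 and 6.56 CPM with PRT4165 against 6.03 and 5.56 CPM with DMSO (adjusted p = 0.172). Its interaction was -2.03 (adjusted p = 0.0123). In untreated TKO cells 2610035F20Rik rose by 4.34 over WT cells (SE 0.28), and in Tet1-KO TKO cells it fell by 0.73 relative to TKO cells (SE 0.19, adjusted p = 0.0183). The directions of its calls were those of Zic2 in these 5 contrasts, including the rise in WT cells with PRT4165 where Zic5 was not called.

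Clybl, an enzyme gene 2 positions beyond Zic5, moved differently. It fell in TKO cells given DMSO, with 7.14 and 7.73 CPM against 15.9 and 14.9 CPM in WT cells given DMSO (-1.05, SE 0.10, adjusted p = 1.2e-09), and in untreated TKO cells, where it fell by 1.32 (SE 0.14) relative to WT cells. Beside Ebf3, the DNA repair gene Mgmt rose by 0.76 (SE 0.11) in TKO cells given DMSO over WT cells and was not called with PRT4165 in WT cells (0.07, adjusted p = 0.696) or in TKO cells (-0.06, adjusted p = 0.685). On the other side of Ebf3, 9430038I01Rik rose by 0.61 (SE 0.10, adjusted p = 1.1e-05) in TKO cells given DMSO and was not called with PRT4165 in WT cells (-0.04, adjusted p = 0.816). Glrx3, the gene beyond it, fell by 0.19 in TKO cells given DMSO and was not called with PRT4165 in WT cells (0.09, adjusted p = 0.106). Ppp2r2a, the second gene to one side of Ebf2, rose with PRT4165 by 0.35 (SE 0.04) in WT cells and by 0.40 (SE 0.04) in TKO cells. Plscr1, 2 positions from Zic4, fell by 0.39 (SE 0.06) in TKO cells given DMSO. It rose by 0.81 (SE 0.11) in Tet1-KO TKO over TKO cells. Gm5620, beside Zic1, was not called in TKO cells given DMSO (adjusted p = 0.246). It fell in untreated TKO cells (-1.96, SE 0.66), where the WT libraries stood at 9.81 and 1.24 CPM. Beside Ebf1, Rnf145 fell by 0.17 (SE 0.05) in TKO cells given DMSO. The neighbours of Ebf4, Idh3b and Cpxm1, changed by -0.32 and 0.34 in TKO cells given DMSO. No tested neighbour of an Ebf gene changed as far as the Ebf gene itself in that comparison.

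**Figure D4:**
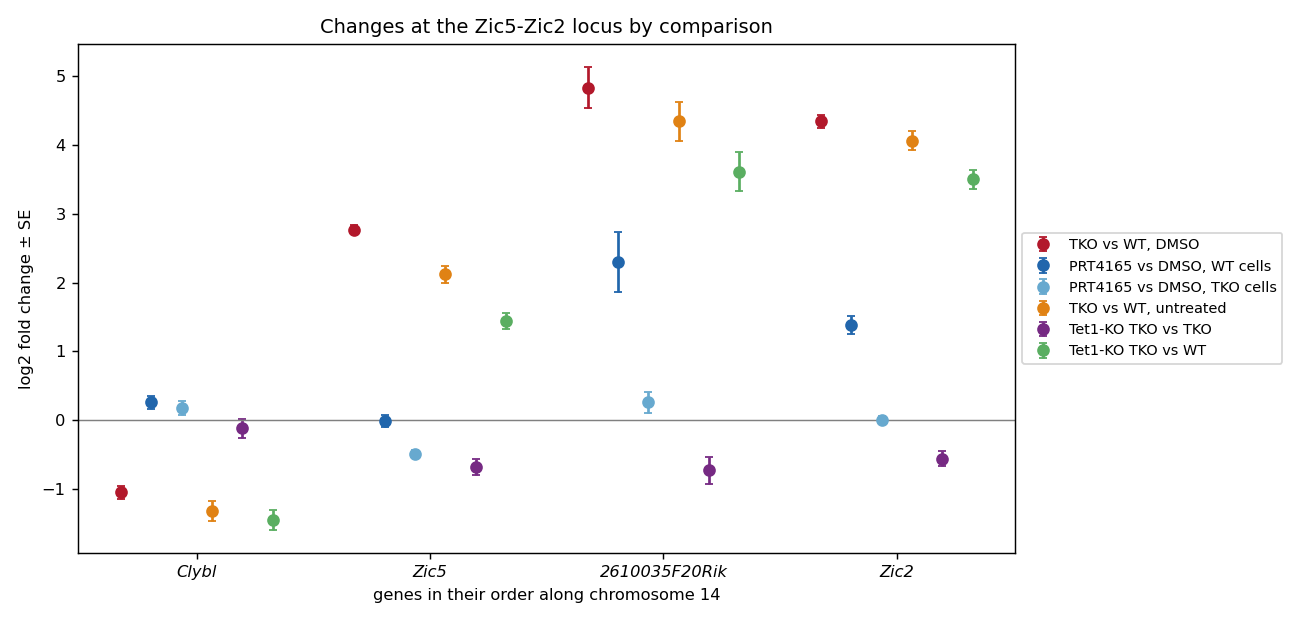
Log2 fold change with its SE (vertical axis) of Clybl, Zic5, 2610035F20Rik and Zic2, in their order along chromosome 14, with a colour for each of 6 comparisons. 2610035F20Rik and Zic2 lie at 4.83 and 4.34 in TKO against WT cells under DMSO, Zic5 at 2.77 and Clybl at -1.05.

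Genes that work with ZIC and EBF factors were summarised from lists. In these lists and the marker sets, only genes that passed the filter were counted. A gene near 0 in some groups could pass only through groups where it was higher, so these counts are not independent of the filter. Among GLI and hedgehog genes, 8 of 17 rose and 6 fell in TKO cells given DMSO over WT cells given DMSO. Their median was 0.08, and of all tested genes 34.8% rose and 34.2% fell. The list as a whole thus did not share the direction of the Zic genes. Gli3, a transcriptional effector of hedgehog signalling, stood at 22.7 ± 1.1 CPM in these TKO cells against 5.78 ± 0.0922 CPM in WT cells (1.97, SE 0.10), and the receptor gene Ptch1 at 124 ± 4.68 against 52.2 ± 2.04 CPM (1.25, SE 0.06). Hes1, a repressor downstream of Notch and hedgehog signals, fell to 11.8 ± 0.33 CPM against 70.2 ± 3.21 CPM in WT cells (-2.57, SE 0.07). In Tet1-KO TKO cells 2 of 17 rose and 4 fell relative to TKO cells, with a median of 0.17. Of all tested genes 11.6% rose and 10.4% fell there. Smo rose by 0.69 (SE 0.10) and Cdon by 0.44 (SE 0.12), while Ptch1 fell by 0.94 (SE 0.10) and Gli1 by 0.94 (SE 0.14).

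Of 19 neural plate border and neural crest genes, 13 rose and 3 fell in TKO cells given DMSO, with a median of 1.84. Of all tested genes 34.8% rose and 34.2% fell in that comparison. Twist1 stood at 8.58 ± 0.371 CPM against 1.04 ± 0.11 CPM in WT cells (3.03, SE 0.18), and Tfap2a at 3.93 ± 0.317 against 0.454 ± 0.115 CPM (3.12, SE 0.25). Gbx2 fell to 32.3 ± 1.05 CPM against 138 ± 8.2 CPM (-2.10, SE 0.06) and Foxd3, a crest factor also active in stem cells, to 47.9 ± 0.989 against 99.9 ± 6.67 CPM (-1.06, SE 0.05). With PRT4165, 5 of 19 rose and 3 fell in WT cells relative to DMSO, beside 19.0% and 18.7% of all tested genes. In TKO cells 3 of 19 rose and 4 fell, beside 19.9% and 19.6%. In untreated TKO cells 8 of 13 rose and 2 fell over WT cells, beside 25.9% and 24.3% of all tested genes.

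Of 12 early neural and formative epiblast genes tested, 10 rose and 2 fell in TKO cells given DMSO over WT cells given DMSO. Among all tested genes 34.8% rose and 34.2% fell. Irx3 stood at 12.5 ± 1.19 CPM against 0.479 ± 0.282 CPM (4.74, SE 0.21) and Otx2 at 12.3 ± 0.284 against 3.27 ± 0.226 CPM (1.91, SE 0.12). The 2 that fell were Zfp521, which encodes a zinc finger protein that binds and inhibits EBF1, at 0.336 ± 0.0462 against 3.72 ± 0.505 CPM (-3.45, SE 0.29), and Dnmt3b, a gene disrupted in these cells. Neuron markers moved with these comparisons: 6 of the 8 tested rose and none fell in TKO cells given DMSO, and 7 of 8 rose in untreated TKO cells. Of 10 stem cell markers 3 rose and 7 fell under DMSO, and 3 rose and 6 fell in untreated cells. In untreated cells 25.9% of all tested genes rose and 24.3% fell. The part of these markers in the changes of the Zic and Ebf genes was not tested.

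Among EBF partners and targets of B cells, 8 of 14 tested genes rose and 2 fell in TKO cells given DMSO over WT cells given DMSO. The shares over all tested genes were 34.8% and 34.2%. Ikzf1, a lymphoid zinc finger factor, stood at 1.29 ± 0.124 CPM against 0.0334 ± 0.00327 CPM (adjusted p = 1.4e-08) and Lef1 at 4.38 ± 0.0546 against 0.581 ± 0.0136 CPM (2.90, SE 0.22). Tcf3, which encodes the E2A partner of EBF1, stood at 135 ± 1.82 against 147 ± 7.71 CPM and fell by 0.12 (SE 0.05). With PRT4165 in WT cells 3 of 14 rose and none fell, where 19.0% of all tested genes were called higher. Ikzf1 was among them, at 0.677 ± 0.092 CPM against 0.0334 ± 0.00327 CPM with DMSO (adjusted p = 1.4e-05). The WT vehicle level of Ikzf1 is below the floor of 0.0475 CPM, so no size is given for its changes. The 8 B lymphocyte markers summed to 5.05 and 5.12 CPM in TKO cells given DMSO against 2.61 and 2.67 CPM in WT cells given DMSO, where Pax5 and Ms4a1 were at 0. Of the 5 tested, 3 rose and none fell under DMSO. In untreated TKO cells 4 rose and 1 fell over WT cells, beside 25.9% and 24.3% of all tested genes. The part of these markers in the changes of the Ebf genes was not tested.

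Among EBF interactors and genes of other EBF lineages, 11 of 16 rose and 4 fell in TKO cells given DMSO over WT cells given DMSO. The shares over all tested genes were 34.8% and 34.2%. Pparg, the adipocyte nuclear receptor, stood at 6.78 ± 0.168 CPM against 0.185 ± 0.0416 CPM (5.18, SE 0.27) and Cebpa at 14.5 ± 0.767 against 1.91 ± 0.328 CPM (2.93, SE 0.13). Zfp423, a zinc finger partner of EBF proteins, fell to 63.9 ± 3.58 CPM against 169 ± 10.9 CPM (-1.41, SE 0.06), as did Prdm16, a factor of brown fat, to 3.17 ± 0.107 against 8.16 ± 0.729 CPM (-1.37, SE 0.14). With PRT4165 in TKO cells 8 of 16 rose and 1 fell, beside 19.9% and 19.6% of all tested genes. Prdm16 rose by 1.16 (SE 0.14) there. Neurod1 rose by 1.94 (SE 0.27) with PRT4165 in WT cells. In Tet1-KO TKO cells 5 of 14 tested genes rose relative to TKO cells, among them Pparg (2.29, SE 0.29), Gnal (0.70, SE 0.19) and Cebpb (0.57, SE 0.17). The 1 that fell was Neurod1 (-1.63, SE 0.22). Of all tested genes 11.6% rose and 10.4% fell there.

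The polycomb genes themselves were measured in the same libraries. Of 22 PRC2 and PRC1 genes, 7 rose and 14 fell in TKO cells given DMSO over WT cells given DMSO, with a median of -0.26. The shares over all tested genes were 34.8% higher and 34.2% lower. Rnf2, the main ubiquitin ligase of PRC1 in stem cells, stood at 125 ± 3.33 CPM against 311 ± 1.21 CPM (-1.32, SE 0.04), and Bmi1 at 30.1 ± 1.06 against 9.71 ± 0.0576 CPM (1.63, SE 0.08). Untreated TKO cells had the same directions, with Rnf2 at 142 ± 1.53 against 343 ± 40.8 CPM in WT cells (-1.27, SE 0.11) and Bmi1 at 31.5 ± 1.58 against 9.02 ± 1.72 CPM (1.81, SE 0.15). With PRT4165, Bmi1 rose by 0.73 (SE 0.09) in WT cells and by 0.81 (SE 0.06) in TKO cells relative to DMSO, and Cbx7 fell by 0.57 (SE 0.05) and 0.56 (SE 0.05). Their part in the changes of the Zic and Ebf genes was not tested.

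Patterns over the 14 libraries were described by the Pearson correlation of log2 CPM after subtracting each gene's mean in its experiment. The libraries come from 7 groups of 2, so the values mostly reflect group means and are given as a description. Zic2 and Zic5 had a correlation of 0.95, Zic2 and Ebf1 of 0.89, and Zic5 and Ebf3 of 0.48, the lowest among the 5 members with a mean of at least 1 CPM in a group. The search for the most similar genes left out those without a symbol and those with Gm-number or Rik names. The neighbour 2610035F20Rik was thus not a candidate. Among the other genes at that level, Cpne9 (0.995), Tbc1d9 (0.99) and Nlrp4c (0.99) were most like Zic2. Magea4, Xlr5b and Rhox2h (0.99 each) were most like Zic5. Ikzf4 (0.97), Ltb (0.96) and Ubtfl1 (0.95) were most like Ebf1, and Plcd4 (0.97), Hdc (0.96) and Lars2 (0.96) most like Ebf3. For Ebf4 they were Il2rb, Adam8 and Grin1 (0.96 each). Magea4, Xlr5b and Rhox2h belong to families of near-identical copies, whose reads may be shared or lost in counting.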

How the data were processed

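The authors deposited 2 tables of raw counts, whole numbers of reads per Ensembl gene and library, 1 per experiment. The submitters' processing notes list HTSeq 0.5.3p9, TopHat2 2.0.2 and Bowtie 0.12.8, with mm9 as the build. No source used here gives the annotation release or the strand setting. Per the labels' protocols, libraries were made with a NEBNext Ultra kit after poly(A) selection.

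Of 37991 IDs, 32919 matched a symbol in GENCODE M21, which gave names, gene order and exon lengths only. Each table was fitted separately in edgeR 4.0.16 (R 4.3.3, limma 3.58.1), with filterByExpr (minimum count 10, minimum total 15), TMM factors and 1 quasi-likelihood fit over all groups, without covariates. Contrasts had two-sided F-tests, Benjamini-Hochberg adjustment over all genes tested and 4 or 3 residual degrees of freedom for experiments 1 and 2. Each SE is the absolute log2 fold change divided by the square root of F, and intervals of log2 differences are 95% t intervals built from it. The biological coefficient of variation was 3.73% and 10.5%. For a group at 0, folds were bounded with 3 counts summed over its libraries. The fit was tested on simulated data.

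Members and lists were chosen with earlier results of these data known. Genes named were all members, tested neighbours within 2 positions, and up to 3 called genes per list and direction with the smallest p. The 3 genes most like each member at 1 CPM or more were named too. That last search skipped genes without a symbol and those with Gm-number or Rik names. Results for a further named gene are not reported here. From the early neural list, 2 of 17 genes were not analysed here. Zic2 and Ebf2 have no promoter sequence shown.

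Replicate numbers come from the labels. Correlations of same-numbered libraries' deviations from their group means were -0.0345 to 0.0384 in experiment 1 and 0.111 to 0.236 in experiment 2. The numbers were taken to pair libraries in experiment 2, though these values are low and the main fit has no replicate term. The count column of Tet1-KO TKO replicate 1 has an added letter B in its heading, so its pairing is not certain. Alternatives were DESeq2 1.42.0, DESeq2's size factors in edgeR, library size only, no filter, more than 1 CPM in 2 libraries, only the compared groups, a replicate block and leaving out each library.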

Additional observations from a re-analysis of the deposited data

Results flagged for a closer look

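On the log2 scale, the response to PRT4165 differed between TKO and WT cells for 3 members in edgeR's interaction test. The test takes the TKO response minus the WT response. For Ebf3, mean levels went from 0.136 to 2.64 CPM in WT cells and from 1.22 to 3.4 CPM in TKO cells. Its WT vehicle level rests on 5 and 3 counts. The interaction was -2.79 for Ebf3 (adjusted p = 0.00185), -1.39 for Zic2 (adjusted p = 1.1e-06) and -0.48 for Zic5 (adjusted p = 0.0126). For Ebf3 and Zic2 it kept its sign and call in all 14 alternatives. For Zic5 it was lost in 1 of 14, without WT inhibitor replicate 1 (-0.41, adjusted p = 0.112).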

How the results depend on the processing

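The 43 tested results for single members were recomputed under 483 alternatives: 440 kept direction and side of the threshold, 34 lost the call, 1 gained it and 8 changed sign. Every change of sign was of a value that had not passed the test, each when a library was left out. Over such fits Zic5 with PRT4165 in WT cells ranged from -0.08 to 0.05, the interaction of Ebf2 from -3.91 to 0.90, Ebf4 in untreated TKO against WT cells from -0.22 to 0.60 and Ebf3 in Tet1-KO TKO against TKO cells from -0.23 to 0.68. With PRT4165 in TKO cells 4 members were called, but 2 with more than 1 CPM in 2 libraries, where fewer were tested, 2 in DESeq2 and 2 to 3 when a library was left out. In Tet1-KO TKO against WT cells 5 were called, but 3 in DESeq2 and 2 to 4 when a library was left out; the cause was not tested. With the replicate block no member's call changed in experiment 2. In experiment 1, where the numbers do not pair libraries, it lost only Ebf2 in TKO against WT cells under DMSO (2.04, adjusted p = 0.0542).

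With library size only, the median of all genes moved by 0.15 in TKO against WT cells under DMSO, and 63.5% of calls were higher in TKO cells, against 50.5% with TMM. In Tet1-KO TKO against TKO cells that share was 40.6%, against 52.9%. All calls of members kept their direction with library size only. Over all genes, the interaction had 650 calls, against 415 in DESeq2 and 298 to 882 when a library was left out, and Tet1-KO TKO against TKO cells had 3584, against 1595 to 2366. Depth limits Zic1, Zic4, Ebf2, Ebf3 and Ebf4, which had at most 10 counts in each WT library given DMSO.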
